A study of Mus musculus with 15 samples.

Results

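Ucp1 and 9 further core genes of heat-producing fat cells (Dio2, Elovl3, Otop1, Kcnk3, Letmd1, Cited1, Tmem26, P2rx5 and Slc36a2) were followed through perivascular adipose tissue (PVAT), the fat that surrounds the aorta. They were the rows of the table of raw counts whose Ensembl identifier carries one of these symbols, 1 row per gene, so the members are 10 of 43352 genes, and all 10 passed the filter on low counts. RNA of 15 samples from mice aged 11 weeks was sequenced, from abdominal PVAT (aPVAT) and thoracic PVAT (tPVAT). The cKO mice carried floxed Prdm16 alleles and a Cre recombinase driven by regulatory DNA of Adipoq, a gene of adipocytes (genotype Prdm16flox, AdipoQCre+), with 3 aPVAT libraries, numbered 1, 3 and 4, and 4 tPVAT libraries. Control mice carried the floxed alleles without Cre (genotype Prdm16flox), with 4 aPVAT and 4 tPVAT libraries. The Adipoq sequence is active in adipocytes of every kind, white ones included, so the deletion was directed at adipocytes and not at thermogenic ones alone. Which exon is flanked by loxP sites, the sex of the mice and whether samples with the same number share an animal are not given in the labels.

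Thermogenic adipocytes, brown or beige, burn fuel in mitochondria and release the energy as heat. UCP1 lets protons leak back across the inner mitochondrial membrane, and noradrenaline from sympathetic nerves raises both its activity and its transcription through cAMP. PRDM16 is a transcriptional co-regulator that helps adipocytes take on and keep this identity, and thoracic PVAT of mice is known to resemble brown fat more than abdominal PVAT does.

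The targeted gene, Prdm16, had 14.7 to 18.3 CPM (the count scaled to sequencing depth, with library sizes adjusted by TMM) in aPVAT cKO and 21.4 to 26.8 CPM in aPVAT control, and 21.2 to 23.8 CPM in tPVAT cKO and 41.1 to 55.6 CPM in tPVAT control. Its log2 fold change was -0.57 in aPVAT (edgeR quasi-likelihood test, adjusted p = 0.00992) and -1.08 in tPVAT (adjusted p = 2.22e-06), and the aPVAT call was lost with only the aPVAT groups in the fit (adjusted p = 0.0739) and without aPVAT cKO 1 (0.0692) or 3 (0.0591). Libraries held 37761133 to 68735385 counts, and aPVAT cKO 4 was the smallest and had the highest share of structural RNA (0.125%). The mitochondrial genome gave 13.3% to 13.9% of the counts in aPVAT cKO and 13% to 16% in aPVAT control, and 26.5% to 31.6% in tPVAT cKO and 33.4% to 36.4% in tPVAT control. The labelled fat was checked with 20 genes of adipocytes of any kind, which were all detected in every group. Their summed level was 33570 to 40581 CPM in aPVAT cKO and 31306 to 35172 CPM in aPVAT control, and 40513 to 43923 CPM in tPVAT cKO and 35672 to 37922 CPM in tPVAT control. None of these markers was at 0 in any group.

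The stretches upstream of the start of 3 of the genes are shown as examples: Ucp1 and Letmd1, which fell in aPVAT cKO, and Dio2, which joins thyroid hormone to cAMP signalling and did not pass the test. They are the 250 bases before the RefSeq start on GRCm38.p6, written 5′ to 3′ on the gene's strand. Capitals mark matches to the motifs searched. The windows of Otop1, Tmem26 and Cited1 were searched too and are not printed, and those of Elovl3, Kcnk3, P2rx5 and Slc36a2 were not used here.
Ucp1 (chr8:83290098-83290347, plus strand): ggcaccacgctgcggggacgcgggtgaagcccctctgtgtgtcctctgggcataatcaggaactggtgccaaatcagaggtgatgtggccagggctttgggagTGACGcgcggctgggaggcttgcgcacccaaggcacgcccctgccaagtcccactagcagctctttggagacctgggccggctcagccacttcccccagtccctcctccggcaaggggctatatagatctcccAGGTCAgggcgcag
Letmd1 (chr15:100468761-100469010, plus strand): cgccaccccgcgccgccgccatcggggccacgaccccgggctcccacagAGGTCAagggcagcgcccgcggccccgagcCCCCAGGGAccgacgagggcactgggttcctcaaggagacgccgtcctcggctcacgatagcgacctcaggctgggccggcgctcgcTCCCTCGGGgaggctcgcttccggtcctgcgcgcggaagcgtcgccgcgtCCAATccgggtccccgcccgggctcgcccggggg
Dio2 (chr12:90739039-90739288, minus strand): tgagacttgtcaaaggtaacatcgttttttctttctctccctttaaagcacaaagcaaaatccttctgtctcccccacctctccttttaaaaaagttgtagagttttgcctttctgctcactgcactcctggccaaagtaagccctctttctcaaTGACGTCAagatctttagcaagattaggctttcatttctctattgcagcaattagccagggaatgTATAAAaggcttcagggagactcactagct

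Motifs were searched on both strands, and each match is a description of letters, not of binding. Ucp1 held TGACG, the core of the cAMP response element (CRE), 147 to 143 bases before the start and AGGTCA, the core bound by many nuclear receptors, 14 to 9 bases before it. Letmd1 held AGGTCA 201 to 196 bases before the start, TCCCNNGGG, the EBF motif, at 171 to 163 on the opposite strand and at 84 to 76, and CCAAT at 34 to 30. Dio2 held the whole CRE, TGACGTCA, 95 to 88 bases before the start, which contains TGACG on both strands, and TATAAA 30 to 25 bases before it. Of 32851 promoter windows of this length, 1.55% held TGACGTCA, 17.8% TGACG, 14% AGGTCA, 5.6% TCCCNNGGG, 33.8% CCAAT and 12.4% TATAAA. The motifs TCAAGGTCA (0.387% of windows) and 2 copies of AGGTCA in 1 direction with 1 base (DR1, 0.0335%) or 4 bases (DR4, 0.0152%) between them were not in these 3 windows. Of the windows not printed, that of Otop1, which also fell in aPVAT cKO, held none of the motifs, that of Tmem26 held TCCCNNGGG, and Cited1 has 3 windows, of which 2 held TATAAA, 1 of these also CCAAT, and the third TGACG and, on the opposite strand, AGGTCA. The RefSeq start of Otop1 lies 1432 bases downstream of its GENCODE start, so its window is not the stretch before that start. The RefSeq start of Dio2 lies upstream of the start in the GENCODE annotation, so its window differs from one drawn there.

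Abdominal PVAT of cKO mice had 3.45% of the Ucp1 level of abdominal controls, and thoracic PVAT of cKO mice 64.9% of that of thoracic controls. Ucp1 (ENSMUSG00000031710; GRCm38 chromosome 8, 83290352 to 83298452, plus strand) had 5.56, 47.8 and 3.15 CPM in aPVAT cKO 1, 3 and 4, against 724, 363, 731 and 365 CPM in aPVAT control 1 to 4. The groups did not overlap, and cKO library 3 stood 15.2-fold above library 4. In controls, libraries 1 and 3 lay about level with each other and above libraries 2 and 4.

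In tPVAT the Ucp1 level was 3995, 3497, 4325 and 4420 CPM in cKO 1 to 4, against 6358, 5935, 6581 and 6154 CPM in control 1 to 4. Every cKO library lay below every control library here too. The means were 18.9 ± 25.1 CPM in aPVAT cKO (SD, n = 3), 546 ± 209.7 CPM in aPVAT control, 4059 ± 417 CPM in tPVAT cKO and 6257 ± 277 CPM in tPVAT control (SD, n = 4 each).

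**Figure D1:**
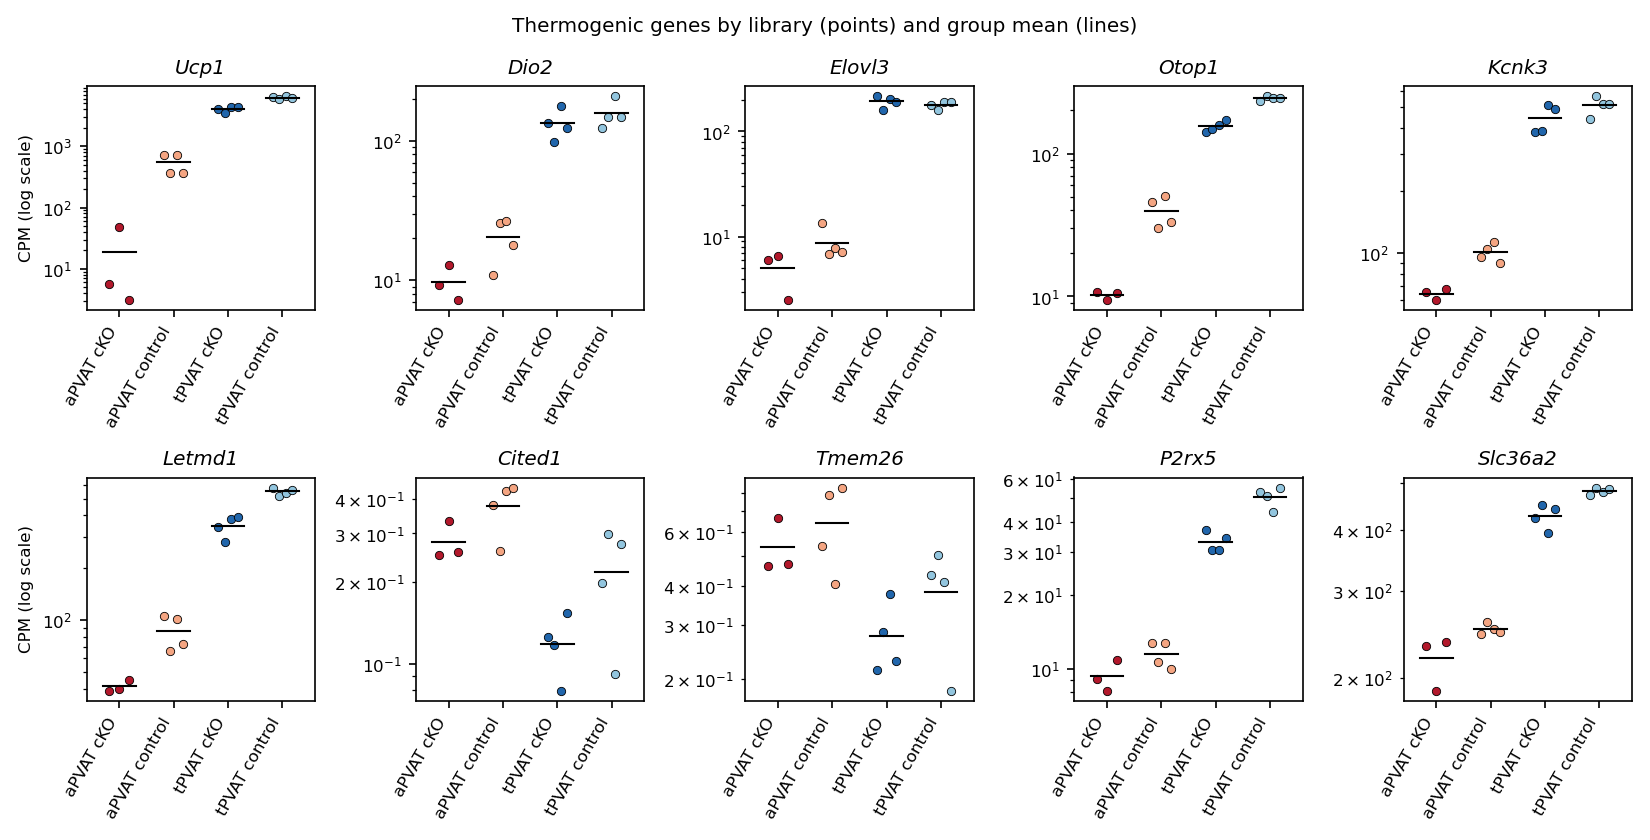
Level of the 10 genes in each library (CPM, log scale; each panel has its own range). Points are libraries and horizontal lines are group means (n = 3 in aPVAT cKO, n = 4 in the others). Ucp1 ranged from 3.15 to 47.8 CPM in aPVAT cKO, and in each depot its cKO libraries lie below the controls.

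The log2 fold change of Ucp1 in aPVAT was -4.84 (SE 0.724), with an adjusted p of 0.00169 by edgeR's quasi-likelihood test over 19645 genes. Without aPVAT cKO 3 it was -6.95 (adjusted p = 7.48e-07), and with only the aPVAT groups in the fit it was -4.83 and did not pass (adjusted p = 0.0979). In tPVAT the log2 fold change was -0.62 (SE 0.543, adjusted p = 0.508), which did not pass in the fit of all 15 libraries, where 1 estimate of the spread serves the uneven abdominal and the even thoracic libraries. With only the tPVAT groups in the fit it was -0.61 and passed (adjusted p = 0.000578). The alternative test, DESeq2, gave no adjusted p for Ucp1 in any comparison. An exact two-sided permutation test of mean log2 CPM gave p = 0.0286 in aPVAT and in tPVAT, the smallest p these numbers of libraries allow, and 0.0286 after adjustment over 4 comparisons. Whole tissue was sequenced, so fewer thermogenic adipocytes and less Ucp1 RNA per adipocyte cannot be told apart.

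Letmd1, a protein of the inner mitochondrial membrane that brown fat mitochondria of mice need for heat production, was lower in cKO in both depots. Letmd1 (ENSMUSG00000037353; chromosome 15, 100469023 to 100479164, plus strand) had 38.9, 40.1 and 45.3 CPM in aPVAT cKO, against 106, 66.2, 102 and 72.8 CPM in aPVAT control. It had 344, 282, 379.8 and 393 CPM in tPVAT cKO, against 578, 518, 539.9 and 563 CPM in tPVAT control. Neither pair of groups overlapped, and the cKO libraries of aPVAT lay close together while the controls spread, with libraries 1 and 3 again the highest. Letmd1 fell by 1.07 on the log2 scale in aPVAT (SE 0.153, adjusted p = 0.00119) and by 0.65 in tPVAT (SE 0.137, adjusted p = 0.00498).

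The enzymes gave other values. Dio2, the deiodinase that turns thyroxine into the active hormone T3 inside the cell (ENSMUSG00000007682; chromosome 12, 90724552 to 90738438, minus strand), had 9.21, 13.0 and 7.30 CPM in aPVAT cKO, against 11.0, 25.9, 26.7 and 18.1 CPM in aPVAT control. It had 134, 98.3, 179 and 124 CPM in tPVAT cKO, against 124, 148, 209 and 149 CPM in tPVAT control. The groups overlapped in both depots, in aPVAT through control library 1. The log2 fold change was -1.05 in aPVAT (SE 0.290, adjusted p = 0.100) and -0.23 in tPVAT (SE 0.253, adjusted p = 0.607), and neither passed. In aPVAT the test was passed with DESeq2 (adjusted p = 0.0369) and without aPVAT control 1 (0.0215).

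Elovl3, an elongase of very long chain fatty acids that cold raises in brown fat of mice (ENSMUSG00000038754; chromosome 19, 46131897 to 46135694, plus strand), had 5.98, 6.50 and 2.53 CPM in aPVAT cKO, against 13.4, 6.84, 7.79 and 7.12 CPM in aPVAT control. The groups did not overlap, but cKO library 3 and control library 2 lay next to each other and control library 1 lay far above the other controls. In tPVAT it had 217, 161, 205 and 192 CPM in cKO, against 178, 161, 190.3 and 190.3 CPM in control, and these ranges overlapped. The log2 fold change was -0.79 in aPVAT (SE 0.263, adjusted p = 0.196; 0.0490 with DESeq2) and 0.11 in tPVAT (SE 0.223), where the adjusted p was 0.809. In tPVAT Elovl3 was the one gene of the 10 with a fold change above 0.

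Among the channels and transporters, Otop1 had the smallest p in aPVAT. Otop1, a proton-selective channel (ENSMUSG00000051596; chromosome 5, 38275972 to 38304217, plus strand), had 10.7, 9.52 and 10.6 CPM in aPVAT cKO, against 46.1, 29.9, 50.4 and 33.0 CPM in aPVAT control. In tPVAT it had 142, 149, 159 and 170.2 CPM in cKO, against 233, 252, 245 and 246 CPM in control. The ranges were apart in both depots. Otop1 fell by 1.96 on the log2 scale in aPVAT (SE 0.151, adjusted p = 6.42e-06), where its p ranked 2 among all genes tested, and by 0.66 in tPVAT (SE 0.128, adjusted p = 0.00309).

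Kcnk3, a potassium leak channel that in brown adipocytes of mice restrains the thermogenic response (ENSMUSG00000049265; chromosome 5, 30588170 to 30625271, plus strand), had 65.2, 60.1 and 67.4 CPM in aPVAT cKO, against 96.4, 105, 113 and 90.1 CPM in aPVAT control. It had 383, 384, 513 and 491 CPM in tPVAT cKO, against 442, 566, 518 and 521 CPM in tPVAT control. The aPVAT ranges were apart and the tPVAT ranges overlapped. Kcnk3 fell by 0.65 in aPVAT (log2, SE 0.117, adjusted p = 0.00796), and its log2 fold change of -0.21 in tPVAT did not pass (SE 0.106, adjusted p = 0.230).

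P2rx5, an ATP-gated ion channel used as a surface marker of brown adipocytes (ENSMUSG00000005950; chromosome 11, 73160421 to 73172685, plus strand), had 9.07, 8.09 and 10.9 CPM in aPVAT cKO, against 12.7, 10.7, 12.7 and 9.98 CPM in aPVAT control. It had 36.9, 30.6, 30.6 and 34.5 CPM in tPVAT cKO, against 52.8, 50.9, 43.7 and 55.3 CPM in tPVAT control. Here the ranges met in aPVAT and were apart in tPVAT. P2rx5 fell by 0.61 in tPVAT (log2, SE 0.107, adjusted p = 0.00135), and its aPVAT value of -0.31 did not pass (SE 0.120, adjusted p = 0.289).

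Slc36a2, a proton-coupled amino acid transporter and likewise a surface marker of brown adipocytes (ENSMUSG00000020264; chromosome 11, 55158470 to 55185077, minus strand), lay in narrow ranges within groups. It had 232, 188 and 236 CPM in aPVAT cKO, against 246, 259, 251 and 248 CPM in aPVAT control, and 423, 449, 394 and 442 CPM in tPVAT cKO, against 471, 488, 479 and 486 CPM in tPVAT control. All cKO libraries lay below the controls of their depot. Its log2 fold change was -0.20 in aPVAT (SE 0.0767, adjusted p = 0.283) and -0.17 in tPVAT (SE 0.0707, adjusted p = 0.136), and neither passed.

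Cited1, a transcriptional co-regulator, and Tmem26, a transmembrane protein, are used as markers of beige adipocytes in mice, and both were near the floor. Cited1 (ENSMUSG00000051159; chromosome X, 102247381 to 102252181, minus strand) was counted 22, 28 and 12 times in aPVAT cKO, against 31, 17, 37 and 36 times in aPVAT control, and 7, 7, 4 and 8 times in tPVAT cKO, against 10, 16, 4 and 12 times in tPVAT control. Tmem26 (ENSMUSG00000060044; chromosome 10, 68723646 to 68782650, plus strand) was counted 41, 56 and 22 times in aPVAT cKO, against 44, 52, 35 and 68 times in aPVAT control, and 12, 17, 19 and 12 times in tPVAT cKO, against 22, 27, 18 and 8 times in tPVAT control. With so few counts neither gene allows a fine comparison. The log2 fold change of Cited1 was -0.43 in aPVAT (SE 0.311, adjusted p = 0.607) and -0.86 in tPVAT (SE 0.363, adjusted p = 0.143). That of Tmem26 was -0.25 in aPVAT (SE 0.311, adjusted p = 0.774) and -0.49 in tPVAT (SE 0.336, adjusted p = 0.389).

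In aPVAT 4 of the 10 genes fell in cKO (Ucp1, Otop1, Kcnk3 and Letmd1), where 0.789% of all genes tested fell, and 6 lay without overlap below the controls, where 5.80% of all genes did. In tPVAT 3 of the 10 fell (Otop1, Letmd1 and P2rx5), where 6.61% of all genes fell, and 5 lay without overlap below the controls (those 3, Ucp1 and Slc36a2), where 12.2% of all genes did. None of the 10 rose in either depot, where 0.743% of all genes rose in aPVAT and 5.44% in tPVAT, so this count is near those shares. The median log2 fold change of the 10 genes was -0.72 in aPVAT and -0.55 in tPVAT, and that of all genes tested was -0.01 in each. At an unadjusted p under 0.05 in either direction there were 8 of the 10 genes in aPVAT, where 12.4% of all genes were, and 5 in tPVAT, where 26.0% of all genes were.

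The effect of the genotype itself differed between the depots for Ucp1 and Otop1. The difference, the aPVAT effect minus the tPVAT effect on the log2 scale, was -4.22 for Ucp1 (SE 0.849, adjusted p = 0.0256) and -1.30 for Otop1 (SE 0.193, adjusted p = 0.00253), so both fell further in aPVAT. These were 2 of 10 genes, where 0.626% of all genes tested had a negative difference past the threshold. For Ucp1 the difference was -6.32 without aPVAT cKO 3 (adjusted p = 1.97e-06), and it did not pass when aPVAT cKO 1, aPVAT control 3 or tPVAT control 1, 3 or 4 was left out (adjusted p 0.0555 to 0.0615). The other members did not pass, with differences of -0.90 for Elovl3 (adjusted p = 0.407), -0.81 for Dio2 (0.564), -0.44 for Kcnk3 (0.350), -0.41 for Letmd1 (0.596), 0.31 for P2rx5 (0.638), -0.026 for Slc36a2 (0.989), 0.43 for Cited1 (0.910) and 0.24 for Tmem26 (0.967). Thus P2rx5 passed in tPVAT and Kcnk3 in aPVAT, but neither gene's effect was shown to differ between the depots.

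**Figure D2:**
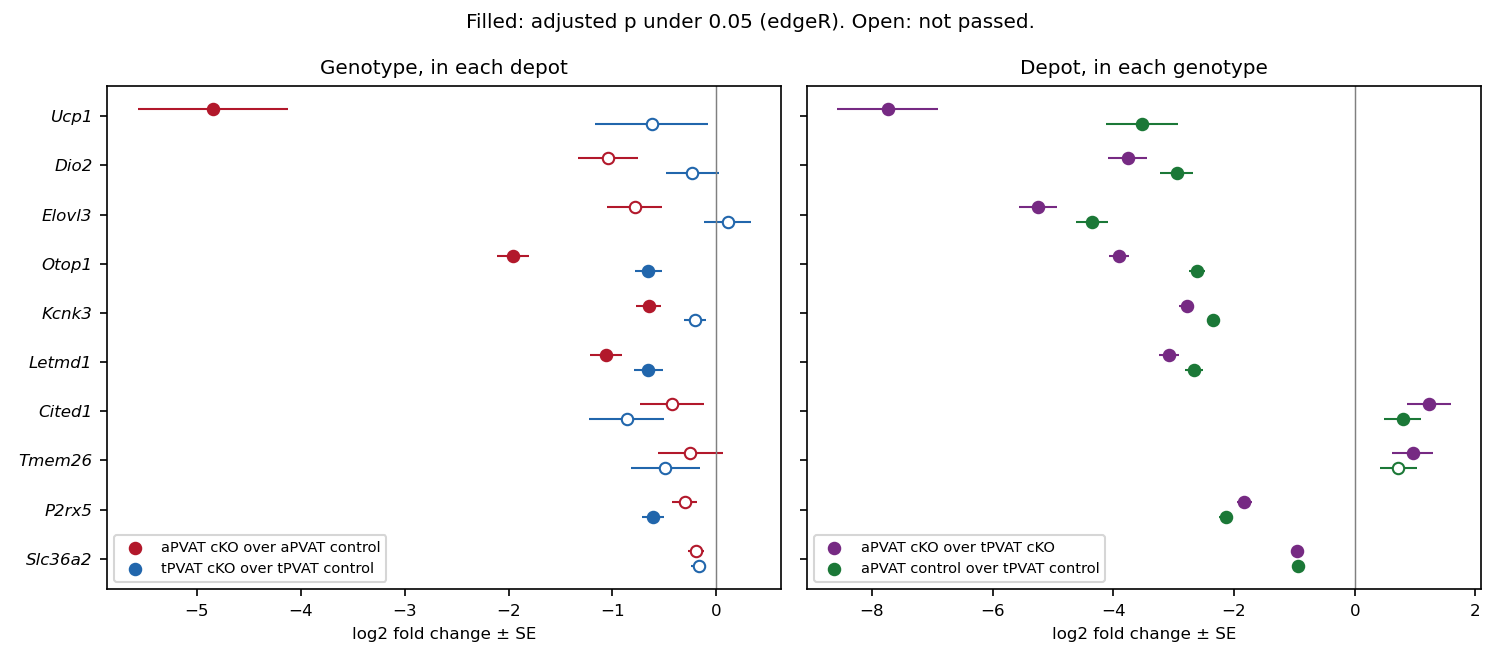
Log2 fold change of each gene with its SE in the 4 comparisons of 2 groups (left, cKO over control in each depot; right, aPVAT over tPVAT in each genotype). Filled points passed an adjusted p of 0.05 in edgeR and open points did not. The SE was derived from the F statistic of that test. Ucp1 had the lowest value in the aPVAT comparison (-4.84), and Cited1 and Tmem26 lay above 0 only in the depot comparisons.

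Between the depots, 8 of the 10 genes were lower in aPVAT in both genotypes. Kcnk3 averaged 64.2 ± 3.71 CPM in aPVAT cKO (SD, n = 3) and 443 ± 69.0 CPM in tPVAT cKO, and 101 ± 9.83 CPM in aPVAT control and 512 ± 51.4 CPM in tPVAT control (SD, n = 4 each). In control mice Elovl3 was 20.4-fold lower in aPVAT (log2 fold change -4.35, SE 0.259, adjusted p = 1.29e-09), Ucp1 11.5-fold (-3.52, SE 0.597, adjusted p = 0.000116) and Dio2 7.72-fold (-2.95, SE 0.274, adjusted p = 2.04e-07). Letmd1 had a log2 fold change of -2.67, Otop1 of -2.61, Kcnk3 of -2.34, P2rx5 of -2.14 and Slc36a2 of -0.94, all past the threshold. Of the 10, 8 were lower in aPVAT control, where 27.3% of all genes were, and the same 8 lay without overlap below tPVAT control, where 24.1% of all genes did.

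In cKO mice the depot differences were -7.74 for Ucp1 (SE 0.832, adjusted p = 1.48e-06), -5.25 for Elovl3, -3.91 for Otop1, -3.76 for Dio2, -3.08 for Letmd1, -2.79 for Kcnk3, -1.83 for P2rx5 and -0.96 for Slc36a2, on the log2 scale. Again 8 of 10 genes were lower in aPVAT, where 25.4% of all genes were, and 8 lay without overlap below tPVAT cKO, where 27.5% of all genes did. For Ucp1 the value was -9.84 without aPVAT cKO 3. Markers of other cells differed between the depots too. In cKO mice 8 of 10 macrophage genes, 10 of 10 sympathetic neuron genes, 9 of 10 endothelial genes and 7 of 10 fibroblast genes were higher in aPVAT, and in control mice 10, 10, 8 and 8 of them were. All 9 cardiac muscle genes and all 6 red blood cell genes tested were lower in aPVAT in both genotypes. Of all genes tested, 27.2% were higher and 25.4% lower in aPVAT in cKO mice, and 29.3% and 27.3% in control mice. The fibroblast sum was 3041 to 3959 CPM in aPVAT cKO and 1652 to 2390 CPM in tPVAT cKO, and 3583 to 4636 CPM in aPVAT control and 1929 to 2484 CPM in tPVAT control. The sympathetic neuron sum was 862 to 1234 CPM in aPVAT cKO and 355 to 701 CPM in tPVAT cKO, and 703 to 1077 CPM in aPVAT control and 375 to 605 CPM in tPVAT control. None of these lists had a gene at 0 in a group, and the part of these cells in the depot differences of the 10 genes was not tested. These comparisons share libraries with the genotype comparisons, so the values stand side by side and are not independent of them.

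Cited1 and Tmem26 ran the other way. In cKO mice Cited1 was 2.34-fold higher in aPVAT than in tPVAT, or 1.23 on the log2 scale (SE 0.360, adjusted p = 0.00948), and Tmem26 1.94-fold, or 0.96 (SE 0.338, adjusted p = 0.0260), so that 2 of 10 rose, where 27.2% of all genes did, and both lay without overlap above tPVAT cKO, where 27.4% of all genes did. In control mice Cited1 rose (0.79, SE 0.308, adjusted p = 0.0378), 1 of 10 where 29.3% of all genes did, and Tmem26 did not pass (0.72, SE 0.305, adjusted p = 0.0552). These shares are near those of all genes. The adjusted p of Cited1 in controls reached 0.112 without tPVAT control 3. The call of Tmem26 in cKO was lost without aPVAT cKO 3 (adjusted p = 0.122), tPVAT cKO 1 (0.0681) or tPVAT cKO 4 (0.0639).

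Scaling bears on the depot comparisons more than on the genotype comparisons. With library totals in place of TMM, the median of all genes moved to 0.69 in cKO and 0.78 in controls on the log2 scale, and all 10 values moved up with it. Ucp1 was then at -7.04 in cKO and -2.78 in controls, and Slc36a2 at -0.32 in cKO and -0.19 in controls, with 8 genes still lower in each genotype. Tmem26 passed in controls on that scale (1.47, adjusted p = 0.000456).

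Levels of different genes were compared per kb of exon (RPKM from TMM-scaled library sizes and the GENCODE exon length). Ucp1 led the 10 genes in every group but aPVAT cKO, with 334 RPKM in aPVAT control, 2481 in tPVAT cKO and 3825 in tPVAT control. The rank of its mean among 19448 nuclear genes was 3147 in aPVAT cKO, 76 in aPVAT control, 12 in tPVAT cKO and 10 in tPVAT control. In aPVAT cKO it stood at 11.5 RPKM, behind Slc36a2 (67.2 RPKM) and Kcnk3 (16.2 RPKM), and its range over libraries, 1.92 to 29.2 RPKM, took in those of Kcnk3 and Letmd1 (8.55 RPKM). That place and that rank rest on library 3, where Ucp1 was at 29.2 RPKM and rank 1240. In aPVAT cKO 1 it was at 3.40 RPKM (rank 7936) and in aPVAT cKO 4 at 1.92 RPKM (rank 10223), below Letmd1 and P2rx5 in both.

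Slc36a2 followed Ucp1 in the other groups, at 77.1 RPKM in aPVAT control, 131 in tPVAT cKO and 148 in tPVAT control, and then came Kcnk3, at 25.4, 111 and 129 RPKM in the same groups. In tPVAT control the next were Letmd1 (113 RPKM), Elovl3 (91.1), Otop1 (70.9), Dio2 (27.1) and P2rx5 (21.2), with overlapping ranges between Kcnk3 and Letmd1 and between Dio2 and P2rx5. In tPVAT cKO Slc36a2, Kcnk3 and Elovl3 (98.2 RPKM) overlapped in turn, Letmd1 (72.1) lay below them without overlap, and Otop1 (45.0), Dio2 (23.0) and P2rx5 (13.8) followed. In aPVAT control Letmd1 (17.9 RPKM) and Otop1 (11.6) came after Kcnk3, and P2rx5 (4.81), Elovl3 (4.45) and Dio2 (3.51) overlapped each other in turn. Cited1 and Tmem26 were last in all 4 groups, at 0.0677 to 0.215 RPKM and 0.0524 to 0.122 RPKM.

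**Figure D3:**
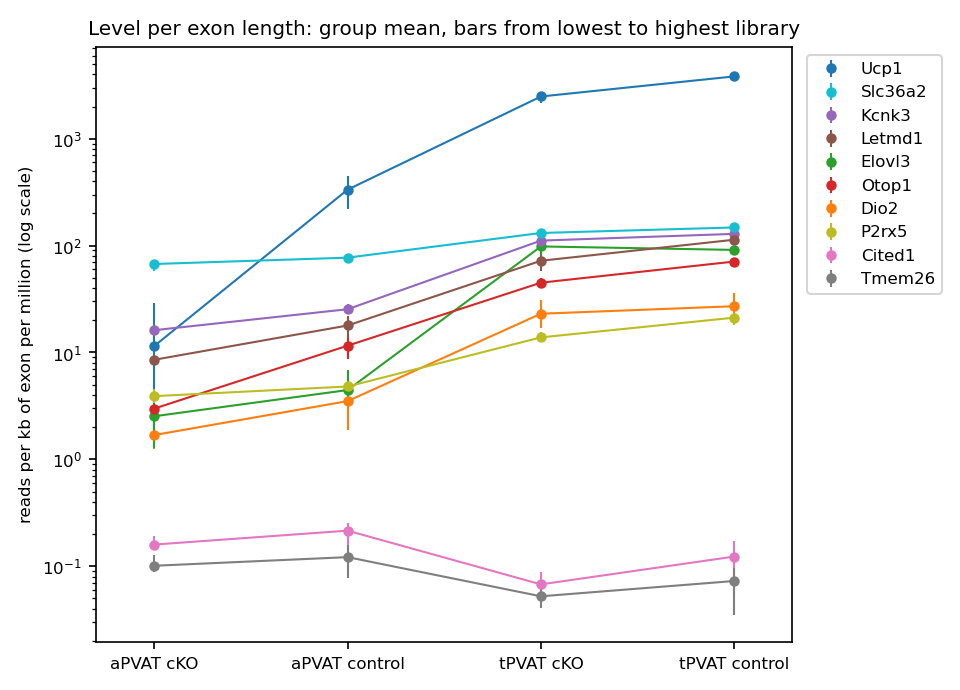
Mean level per kb of exon in each group (RPKM, log scale), with bars from the lowest to the highest library (n = 3 in aPVAT cKO, n = 4 in the others); lines join the groups of 1 gene and mark no time course. Ucp1 is the highest of the 10 genes except in aPVAT cKO, where it averages 11.5 RPKM, and Cited1 and Tmem26 lie lowest in every group.

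The spread between libraries differed by gene and group. Within aPVAT cKO the SD of log2 CPM of Ucp1 was 2.06, above that of 99.6% of all genes, where the median gene had 0.157. In tPVAT control it was 0.0639, and only 16.3% of all genes had a smaller one. Otop1, Kcnk3 and Letmd1 were even in aPVAT cKO (SD 0.0951, 0.0844 and 0.115). Library 3 of aPVAT cKO was the highest of its group for Ucp1, Dio2 and Elovl3, and for Cited1 and Tmem26, and the lowest for Otop1, Kcnk3, P2rx5 and Slc36a2. In aPVAT control, libraries 1 and 3 were the highest pair for Ucp1, Elovl3, Otop1, Letmd1 and P2rx5, and libraries 2 and 3 for Dio2 and Kcnk3.

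**Figure D4:**
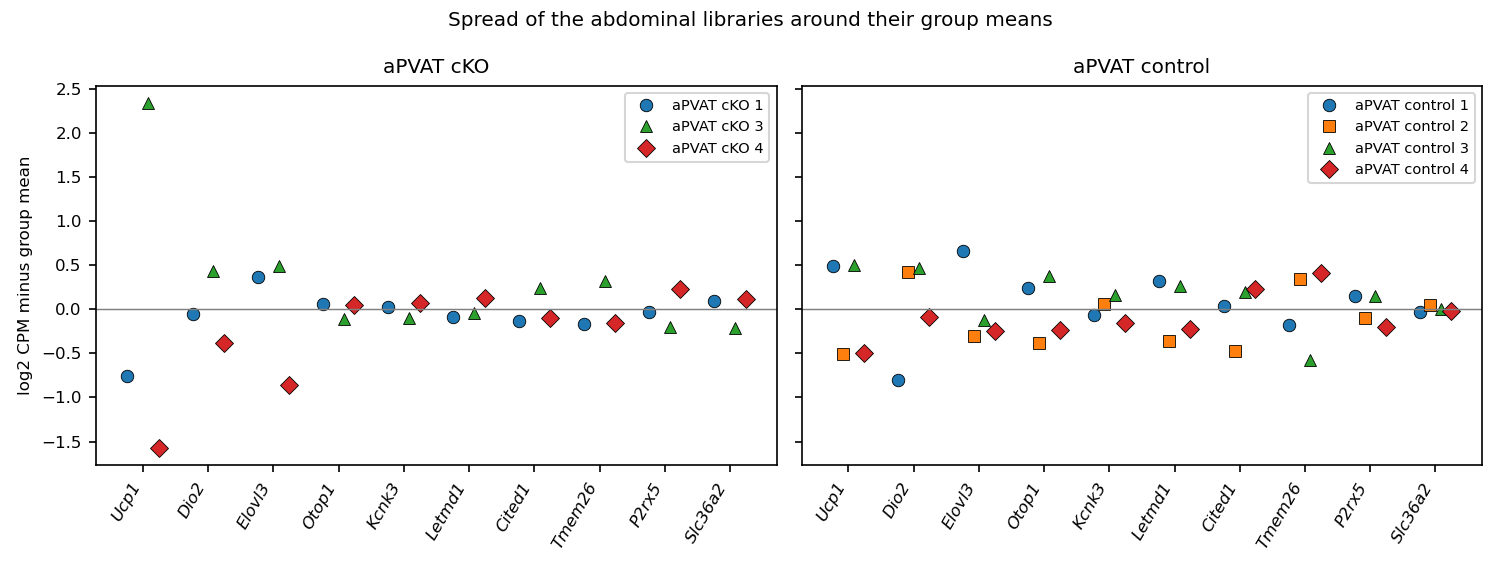
Deviation of each abdominal library from the mean of its group (log2 CPM) for the 10 genes, cKO on the left (libraries 1, 3 and 4) and control on the right (1 to 4). For Ucp1, cKO library 3 lies above 2 and library 4 below -1.5, while Otop1, Kcnk3 and Letmd1 lie close to 0 in cKO.

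Per 1000 CPM of the 20 genes of adipocytes of any kind, Ucp1 amounted to 0.0775 to 1.43 CPM in aPVAT cKO and 11.0 to 21.3 CPM in aPVAT control, and to 86.3 to 102 CPM in tPVAT cKO and 162 to 180.2 CPM in tPVAT control. On this scale Otop1 was at 0.282 ± 0.0198 in aPVAT cKO (SD, n = 3) and 1.19 ± 0.245 in aPVAT control (SD, n = 4), and at 3.67 ± 0.195 in tPVAT cKO and 6.63 ± 0.336 in tPVAT control (SD, n = 4 each). Elovl3 was at 3.98 to 5.22 in tPVAT cKO and 4.50 to 5.21 in tPVAT control, ranges that overlapped. Of these 20 adipocyte genes 1 rose in aPVAT cKO (Dgat1, log2 fold change 0.44), where 0.743% of all genes tested rose. Dgat1 did not pass with only the aPVAT groups in the fit (adjusted p = 0.143) or without aPVAT cKO 4 and aPVAT control 2 (0.0590). In tPVAT cKO 8 of the 20 rose, among them Cfd (1.25), where 5.44% of all genes rose. None of the 20 fell, where 0.789% of all genes fell in aPVAT and 6.61% in tPVAT.

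Markers of other cells moved in tPVAT beside the members. For comparison, 6.61% of all genes tested fell and 5.44% rose in tPVAT cKO, and 0.789% fell and 0.743% rose in aPVAT cKO. Of 9 cardiac muscle genes tested 4 fell in tPVAT cKO, and the summed level of the list was 91.9 to 237 CPM in tPVAT cKO and 241 to 321 CPM in tPVAT control. Smooth muscle genes summed to 1971 to 2156 CPM in tPVAT cKO and 2289.7 to 2983 CPM in tPVAT control (1 of 10 fell), and endothelial genes to 963 to 1027 CPM in tPVAT cKO and 1084 to 1235 CPM in tPVAT control (3 of 10 fell). None of these lists had a gene at 0 in a group. In aPVAT none of the 3 lists had a gene that passed in edgeR or had an unadjusted p under 0.05, and the cardiac sum was 25.7 to 28.1 CPM in aPVAT cKO and 23.2 to 27.8 CPM in aPVAT control. White-selective genes, a list chosen with earlier results of these data known, rose in tPVAT cKO for 10 of 23 tested. Their sum was 1476 to 1671 CPM in tPVAT cKO and 868 to 1155 CPM in tPVAT control. In aPVAT cKO 4 of them rose and 2 fell. Macrophage genes summed to 489 to 713 CPM in aPVAT cKO and 686 to 925 CPM in aPVAT control. Of these genes 0 of 10 passed and 7 had an unadjusted p under 0.05, where 12.4% of all genes did. The part of these cells in the values of the 10 genes was not tested.

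Over the 15 libraries, the genes whose log2 CPM ran most like that of Ucp1 were Cpt1b (Pearson r = 0.980), Cox7a1 (0.980), Fabp3 (0.972), Fabp3-ps1 (0.970), Cpn2 (0.966), Slc27a2 (0.960), Kng2 (0.954) and Dhrs9 (0.950), out of 13413 genes with a mean log2 CPM of at least 1. Fabp3-ps1 is a pseudogene of Fabp3, so reads of the pair may have been split between them. Among the members r was 0.950 for Otop1, 0.909 for Letmd1, 0.896 for Dio2, 0.881 for Kcnk3, 0.876 for Elovl3, 0.834 for Slc36a2, 0.832 for P2rx5, -0.430 for Cited1 and -0.470 for Tmem26. These are descriptions over libraries that share a depot, so the depots carry much of r. For the deviations from the group means the closest genes were Fabp3 (0.893), Cd109 (0.873), Fabp3-ps1 (0.860), Setmar (0.851) and Lynx1 (0.847), and among the members Elovl3 (0.670) was the closest and Slc36a2 (-0.848) the most opposed. These values rest largely on the aPVAT cKO libraries, where Ucp1 deviated by -0.76, 2.34 and -1.58 (log2, libraries 1, 3 and 4), against at most 0.51 in size elsewhere. Over the 12 other libraries, a choice made after the values were seen, r was 0.918 for Fabp3 and 0.841 for Setmar but -0.0597 for Cd109 and 0.474 for Lynx1. Among the members it was then 0.935 for Otop1, 0.928 for Letmd1, 0.685 for Elovl3 and -0.308 for Slc36a2, and without aPVAT cKO 3 alone it was 0.825, 0.691, 0.767 and -0.321 for the same genes.

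Of 42 other thermogenic genes 41 were tested. In aPVAT cKO 20 fell and none rose, where 0.789% of all genes tested fell and 0.743% rose. In tPVAT cKO 17 fell and 2 rose, where 6.61% of all genes fell and 5.44% rose. The counts of genes that rose are near those shares. The median log2 fold change of the list was -0.60 in aPVAT and -0.51 in tPVAT, against -0.01 over all genes. By smallest p the first in aPVAT were Cpn2, a subunit of carboxypeptidase N (-4.58), Cidea, a lipid droplet protein (-1.74), Cpt1b, which brings fatty acids into mitochondria (-3.38), and Cox7a1, a subunit of cytochrome c oxidase (-3.35). In tPVAT they were Pm20d1, an enzyme of N-acyl amino acids (-1.63), Ntrk3, a neurotrophin receptor (-1.13), Impdh1, an enzyme of guanine nucleotide synthesis (-0.99), and Bmp8b, a factor secreted by brown fat of mice, which rose (4.42; 3.75 CPM in tPVAT cKO and 0.172 CPM in tPVAT control).

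Cidea, Cpt1b, Cox7a1 and Fabp3 were also first in this list by the difference between depots (log2 -1.55, -2.88, -2.83 and -3.65). Of the list 9 genes had a negative and 2 a positive difference past the threshold, where 0.626% and 0.158% of all genes tested did. Cpt1b averaged 0.254 CPM in aPVAT cKO and 2.72 CPM in aPVAT control, and 14.7 CPM in tPVAT cKO and 20.9 CPM in tPVAT control. Without aPVAT cKO 3 the difference for Fabp3 was -4.44.

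Upstream of Ucp1, 22 genes of adrenergic and cAMP signalling were tested. The shares of all genes tested were 0.789% lower and 0.743% higher in aPVAT cKO, and 6.61% and 5.44% in tPVAT cKO. In aPVAT cKO 1 fell, Adcy3, an adenylate cyclase (-0.77, adjusted p = 0.0250), and the call was lost with only the aPVAT groups in the fit (adjusted p = 0.135) and without aPVAT cKO 1 or 4 or aPVAT control 1 or 3 (0.0562 to 0.139). In tPVAT cKO 7 fell and 1 rose, with Gna13 (-0.52), Gnas, the stimulatory G protein subunit (-0.94), Rgs2, a regulator of G protein signalling (-1.10), and Adora2a, an adenosine receptor (-0.50), first by p. None of the 22 differed in its genotype effect between the depots past the threshold in edgeR, where 0.784% of all genes did. An unadjusted p under 0.05 was found for 2 of the 22, and for 1738 of all 19645 genes tested. With DESeq2 Gna13 passed (0.34, adjusted p = 0.0349).

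For thyroid hormone, the substrate and product of Dio2, 16 of 17 genes were tested. Rxrb, a partner of the thyroid hormone receptors, fell in tPVAT cKO (-0.25, adjusted p = 0.0214), and Slco1c1, a carrier of the hormone, rose there (1.36, adjusted p = 0.0184) at 0.178 CPM in tPVAT cKO and 0.0699 CPM in tPVAT control. Rxrb did not pass without tPVAT cKO 1 or tPVAT control 3, and Slco1c1 not without tPVAT control 1 or 2.

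Heat can also come from creatine and calcium cycles that need no UCP1. Of 18 such genes none passed in aPVAT with edgeR, where 1.53% of all genes did. An unadjusted p under 0.05 was found for 3 there, and for 12.4% of all genes. In tPVAT cKO 4 of the 18 fell, where 6.61% of all genes fell, and 2 rose, where 5.44% rose. Among the 4 were Slc6a8, the creatine transporter (-0.52), and Ryr2, a calcium release channel that the heart also expresses (-0.62). Among the 2 was Alpl, a phosphatase that in mice can act on phosphocreatine (0.71). With edgeR Alpl was the 1 gene of this list whose genotype effect differed between the depots (-0.88, adjusted p = 0.000144). Of all genes tested, 0.784% had a difference past the threshold. The difference for Ryr2 (0.75, adjusted p = 0.0624) passed with DESeq2 (0.00864) and with limma and weights per library (0.0372), and that for Slc6a8 without aPVAT control 1 (0.42, adjusted p = 0.0276).

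Relatives of the 10 genes went their own ways. Ucp2, an uncoupling protein found in many tissues, rose in tPVAT cKO (243 CPM in tPVAT cKO and 99.2 CPM in tPVAT control; log2 fold change 1.30, adjusted p = 0.000180), while Ucp3, the relative known from skeletal muscle, was at 167.5 CPM in tPVAT cKO and 158 CPM in tPVAT control (0.09, adjusted p = 0.615). In aPVAT Ucp2 had a log2 fold change of 0.06 (adjusted p = 0.931), and its difference between depots, -1.24, passed (adjusted p = 0.0375) but not without any 1 of 9 libraries (adjusted p up to 0.106). Kcnk2, a potassium channel of the same family as Kcnk3, rose in aPVAT cKO (0.73, adjusted p = 0.00819; 0.0580 with only the aPVAT groups in the fit) and in tPVAT cKO (1.35, adjusted p = 3.75e-06), the reverse of Kcnk3 in aPVAT.

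Among the elongases related to Elovl3, Elovl7 (1.85, adjusted p = 2.26e-05) and Elovl5 (0.56, adjusted p = 0.0123) rose in tPVAT cKO. Of the purinergic receptors related to P2rx5, P2rx6 rose (0.50) and P2rx1 fell (-0.47, adjusted p = 0.0445) in tPVAT cKO, and P2rx1 did not pass under most of the alternatives. Kcnk4 (-1.08) and Letm1 (-0.37), relatives of Kcnk3 and Letmd1 in name or structure, fell there as well, though not without some of the single tPVAT libraries. Of 33 relatives tested, 5 rose and 3 fell in tPVAT cKO, where 5.44% of all genes rose and 6.61% fell. In aPVAT cKO 1 of them rose, where 0.743% of all genes did. Their median log2 fold changes were 0.04 in aPVAT and -0.06 in tPVAT.

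**Figure D5:**
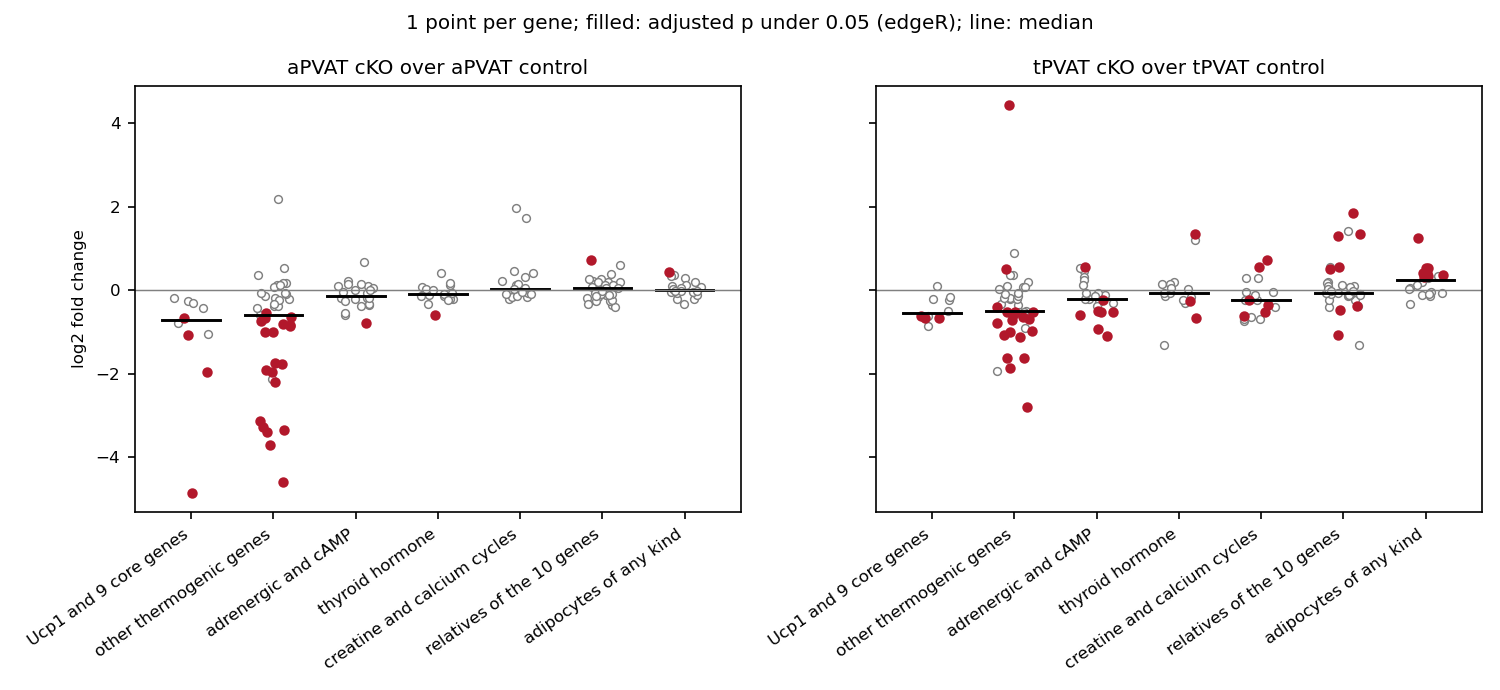
Log2 fold change of cKO over control in aPVAT (left) and tPVAT (right) for the 10 genes and 6 lists, 1 point per gene, with filled points past an adjusted p of 0.05 in edgeR and a line at the median. The 10 genes (median -0.72 in aPVAT and -0.55 in tPVAT) and the other thermogenic genes (-0.60 and -0.51) lie mostly below 0. The adipocyte genes in tPVAT lie mostly above 0. The 10 genes and the lists were chosen with earlier results of these data known.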

How the data were processed

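Perivascular fat of 15 mouse samples was snap-frozen, RNA was purified with TRIzol and RNeasy Micro columns, and stranded mRNA libraries were made, per the labels' protocols. The authors deposited raw counts per Ensembl gene, whose totals differ between libraries. The submitters' processing notes list Salmon, Subread, DESeq2 1.42.1 and the build mm10 but not what each was used for. The counter, its annotation and its use of strand are likewise not given. On the opposite strand, Gm26512 lies over 1.72% of the exon bases of Dio2, Pitx3 over 0.506% of those of Elovl3 and Gm9899 over 5.76% of those of Kcnk3, and without a stated strand setting reads there cannot be told apart. The aPVAT cKO library numbered 2 was not analysed here.

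Columns were matched to samples by depot, genotype and number. Symbols, locations and exon lengths came from GENCODE M21 on GRCm38, which held 42462 of 43352 identifiers (97.9%), and promoter sequences from RefSeq (GRCm38.p6). The test was edgeR 4.0.16 under R 4.3.3: filterByExpr with a minimum count of 10 kept 19645 genes and 99.98% of the counts, libraries were scaled by TMM, and 1 quasi-likelihood model with a mean per group was fitted to all 15 libraries. Benjamini-Hochberg adjustment ran over all genes tested, and 0.05 was the threshold. Alternatives used limma 3.58.1 and DESeq2 1.42.0. Code was tested on simulated counts. No 2 libraries of a group agreed within sampling noise (chi-square per degree of freedom 10.5 to 142). The labels do not say that samples of a group came from separate animals, and the spread behind each p-value may therefore be technical.

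The 10 genes and all lists were chosen with earlier results of these data known. Named from each list were up to 4 genes by smallest p, relatives of the 10 genes that are described, Prdm16, and the genes most like Ucp1. Some list genes that met this rule are not reported here.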

Additional observations from a re-analysis of the deposited data

Results flagged for a closer look

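Elovl3 in aPVAT control library 1, at 13.43 CPM, lay apart from the other 3 controls (6.84 to 7.79 CPM): its gap to the nearest of them was 0.856 of the group's range, past the 95% limit of Dixon's test. Of 30 groups of 4 libraries examined over the 10 genes this was the 1 that stood out, and chance alone marks about 1 in 20 such groups.

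The genotype effect differed between the depots for Ucp1 and Otop1 by the test of the difference itself. The aPVAT effect minus the tPVAT effect was -4.22 on the log2 scale for Ucp1 (edgeR, adjusted p = 0.0256), from -4.84 in aPVAT and -0.62 in tPVAT. For Otop1 it was -1.30 (adjusted p = 0.00253), from -1.96 in aPVAT and -0.66 in tPVAT. The Ucp1 difference did not pass without aPVAT cKO 1, aPVAT control 3 or tPVAT control 1, 3 or 4 (edgeR, adjusted p 0.0555 to 0.0615). The Otop1 difference passed in all 24 other settings.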

How the results depend on the processing

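The 10 genes in 5 comparisons were recomputed under 10 other settings (and for Ucp1 an exact permutation test) and without each of the 15 libraries, which gave 1238 values: 1206 kept their direction and side of the threshold, 12 passed that had not, 18 no longer passed, and 2 changed sign. The 2 are the Slc36a2 difference between depots, which ran from -0.087 to 0.071 without 1 library at a time, at 0.071 without aPVAT cKO 3 and 0.017 without tPVAT cKO 2. Without 1 library at a time, the number of the 10 genes that passed was 4 to 5 in aPVAT, 3 to 4 in tPVAT, 9 to 10 between depots in cKO, 8 to 10 between depots in controls, and 1 to 2 for the difference between depots. For that difference DESeq2 gave 1 (Otop1). DESeq2 gave no adjusted p for Ucp1 in any of the 5 comparisons, so no call of Ucp1 was checked with it. In tPVAT Slc36a2 passed with limma and weights per library (adjusted p = 0.0342) and Cited1 without tPVAT control 3 (0.0457). In controls the Cited1 depot call was lost with only 2 groups in the fit (0.0828), with DESeq2 (0.0764), with no filter (0.0609) and without any 1 of 5 libraries (0.0569 to 0.112), and Tmem26 passed with weights (0.0386). Over all genes the count in aPVAT went from 301 to 92 with only 2 groups in the fit, 605 with DESeq2 and 161 without aPVAT cKO 1; in tPVAT from 2367 to 3726 with only 2 groups and 4080 with weights; and for the difference from 154 to 350 with DESeq2. The replicate block by number moved the Ucp1 depot value in cKO to -8.38, let Dio2 pass in aPVAT (-1.04, adjusted p = 0.0330) and ended the Cited1 depot call in controls (0.0576). Same-numbered libraries did not deviate together (r = 0.00869 to 0.160 between cKO depots, 0.00273 to 0.0482 between control depots, -0.215 to 0.163 between genotypes), so the numbers are not taken as pairs. With limma, Ucp1 in aPVAT was at -5.63 with weights and -5.62 with a random block for genotype and number. For 78 further pairs of gene and comparison, chosen after their values were seen, 1838 of 1925 values kept their side. Cited1 and Tmem26, with 4 to 68 counts per library, are limited by depth.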
